A study of Mus musculus with 12 samples.

Results

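The 105 genes described here encode the machinery that is assembled at promoters: RNA polymerases I, II and III, the general transcription factors, the TBP-associated factors and Mediator. They were picked by symbol from a table of 17419 genes and comprise 28 polymerase genes (Polr1, Polr2 and Polr3 followed by a letter), 23 Gtf genes (Gtf2 and Gtf3), 23 Taf genes and 31 Med genes. A choice by name also takes in a few genes of other kinds: Taf15, which encodes an RNA-binding protein of the FET family, the TFII-I family of sequence-specific regulators (Gtf2i, Gtf2ird1 and Gtf2ird2), and Med9os, an antisense transcript of Med9. All libraries came from NIH-3T3, an immortalised line of mouse fibroblasts labelled WT, and differed in how long the cells had been exposed to 800 µM 4-thiouridine (4sU). The durations were 15 min, 30 min, 60 min, 90 min and 120 min, and the control group without it is labelled no4sU. 4sU enters RNA made during the exposure, and after iodoacetamide treatment (SLAM-seq) it is read as C, so that the new-to-total ratio (NTR), the proportion of a gene's transcripts synthesised since labelling began, can be estimated for each library. Each of the 6 groups had 2 libraries, replicates A and B, and the labels do not say whether these came from separate cultures, so the p-values measure only the spread between the libraries, which may be technical. The series title states the question, which is how the length of labelling affects quantification.

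As background, RNA polymerase I makes the large ribosomal RNA precursor, polymerase II makes messenger RNA, and polymerase III makes transfer RNA, the smallest ribosomal RNA and other short transcripts. The enzymes share several small subunits and each has its own pair of large subunits that forms the active site. At polymerase II promoters, TFIID (the TATA-binding protein with its Tafs) binds the core promoter, TFIIA and TFIIB stabilise it, TFIIF brings the polymerase, and TFIIE and TFIIH open the DNA. Mediator links activators bound at enhancers to this assembly through its head, middle and tail, which are held together by the backbone subunit Med14, and a detachable kinase module controls its contact with the polymerase. SL1, which holds Taf1a, Taf1b, Taf1c and Taf1d, serves polymerase I, and TFIIIA and TFIIIC serve polymerase III.

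Libraries held between 9917026 and 13739380 reads counted to genes. All 10 fibroblast markers looked for were expressed, with a summed level of 17060 to 17100 CPM (counts scaled to a common library size) in the no4sU libraries and 20370 to 20890 CPM at 120 min. Of 13 markers of epithelial, blood, endothelial, muscle and nerve cells, 7 were in the table, with a summed level of 6.71 to 9.61 CPM per library, and 2 had a median of at least 1 CPM. Of the 105 genes, 101 passed the filter of the count test, and 95 had a mean count of at least 100 (27 polymerase, 22 Gtf, 19 Taf and 27 Mediator genes). NTR summaries are over these 95. Med12l, Med9os, Gtf2a1l and Taf7l had a mean count below 1 and were not tested, and Polr3gl, Taf9b, Taf7, Med18, Med31 and Taf1a were tested but had mean counts from 30.8 to 89.7.

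Most of the machinery was expressed at a moderate level. In RPKM, which is CPM divided by the gene length in kilobases (mean of all 12 libraries), the median was 20.4 for polymerase genes, 15.7 for Mediator, 14.0 for Gtf and 9.72 for Taf genes, against 14.0 over all 9065 genes of the same minimum count. The highest levels belonged to Polr1d, a subunit shared by polymerases I and III, at 89.9 RPKM, Polr2m (Gdown1, a factor bound to polymerase II) at 82.7 RPKM and the polymerase II subunit Polr2g at 77.0 RPKM. Polr2a, the largest polymerase II subunit, reached 60.0 RPKM and its partner in the active site, Polr2b, 34.5 RPKM. The corresponding pair of polymerase I was lower, with Polr1a at 22.0 and Polr1b at 22.3 RPKM, and that of polymerase III lower again, with Polr3a at 9.89 and Polr3b at 9.45 RPKM. Among Mediator genes, Med13l stood at 20.2 RPKM, Med1 at 17.1, Med14 at 15.7, Med12 at 12.1 and Med13 at 10.5 RPKM.

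At 120 min the median NTR was highest for Mediator and lowest for the polymerases. It was 0.331 ± 0.0143 for polymerase genes, 0.345 ± 0.0105 for Gtf genes, 0.364 ± 0.0110 for Taf genes and 0.434 ± 0.0120 for Mediator genes (SD, n = 2 libraries), against 0.354 ± 0.00523 over all genes. Mediator and Taf genes together exceeded polymerase genes by 0.0602 in replicate A and by 0.0964 in replicate B, a mean difference of 0.0783. With 2 libraries this difference was described and not tested. Restricted to averages of 500 counts or more (13 Mediator, 7 Taf and 15 polymerase genes), the pooled difference was -0.0005. The classes moved apart under this restriction. The Taf median fell, whereas the middle gene of the 13 Mediator genes, Med15, stood at 0.441. The next lower of these 13 genes, Med28, stood at 0.233, so the Mediator median lies at the edge of a gap. Whether the Mediator excess depended on abundance was not tested. At 60 min the pooled difference, over all 95 genes' classes at the usual minimum, was 0.0335. Taf genes alone differed from polymerase genes by 0.0331 ± 0.0253 at 120 min and by 0.0004 ± 0.0313 at 60 min, which at 60 min is within the spread between the libraries.

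The spread within each class was far wider than the distance between the classes. At 120 min the NTR ran from 0.156 to 0.838 over polymerase genes, from 0.153 to 0.915 over Gtf genes, from 0.153 to 1.0 over Taf genes and from 0.198 to 1.0 over Mediator genes. Genes whose RNA was mostly new (NTR of at least 0.5) numbered 7 of 27 for the polymerases, 6 of 22 for Gtf, 8 of 19 for Taf and 11 of 27 for Mediator. Together they made up 33.7% of the 95 genes, against 33.5% of all genes. At an NTR of at least 0.8, 6 were Taf, 4 Mediator, 2 polymerase and 1 Gtf. The order of the genes was similar at 60 min, where the Spearman correlation of the NTR with that at 120 min across the 95 genes was 0.93, a description across genes measured in the same series of libraries.

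**Figure D1:**
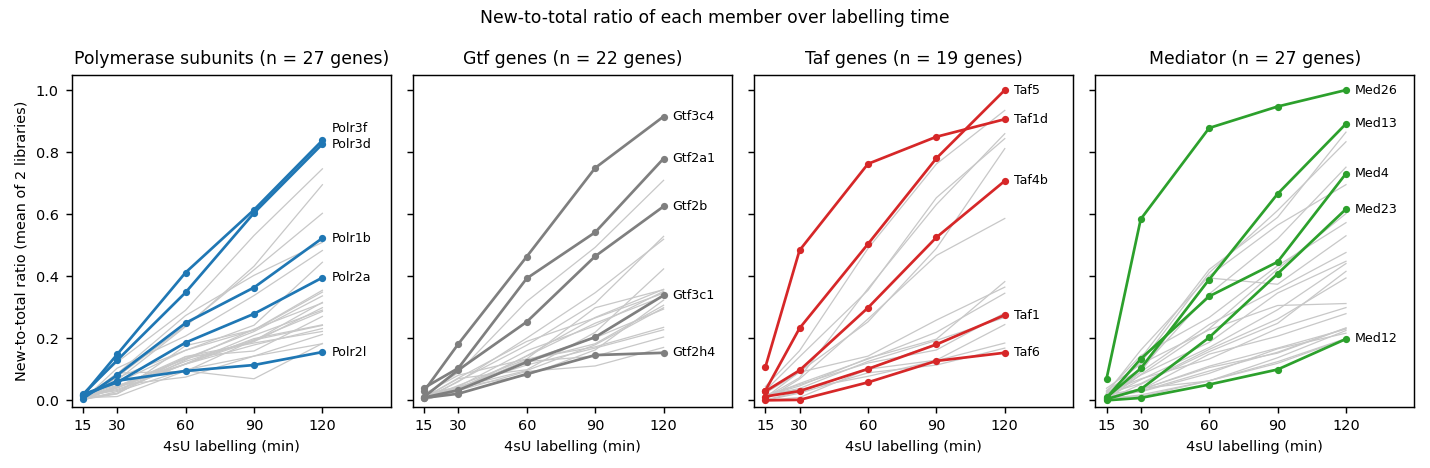
New-to-total ratio (y axis, mean of 2 libraries, no unit) of each gene averaging at least 100 counts against labelling time in minutes (x axis), in a panel per class, with grey lines for single genes and coloured lines for labelled ones. The fans overlap across classes, with Med26 and Taf5 at 1.0 and Polr2l, Gtf2h4 and Taf6 near 0.15 at 120 min.

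Among the polymerases, the 3 oldest RNAs were of subunits used by all 3 enzymes (Polr2l, Polr2f and Polr2k), and the newest were of polymerase III subunits (Polr3f and Polr3d). The 5 shared subunits had NTR values from 0.156 to 0.445 at 120 min with a median of 0.183. Polr2l was at 0.146 in replicate A and 0.165 in replicate B, Polr2f at 0.188 and 0.177, and Polr2k at 0.213 and 0.154. The 7 subunits of polymerase II alone ranged from 0.212 (Polr2g) to 0.483 (Polr2d), so that none reached 0.5. Polr2a went from 0.0232 and 0.0166 at 15 min through 0.0562 and 0.0589 by 30 min, 0.185 and 0.187 by 60 min, then 0.293 and 0.265 by 90 min, to 0.397 and 0.395 by 120 min. Its 2 libraries stayed close together at each time, and Polr2b lay below it, at 0.295 and 0.302 at 120 min.

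The 9 genes specific to polymerase III spanned 0.222 to 0.838, with 5 at 0.5 or above. Polr3f, part of the initiation subcomplex, stood at 0.847 and 0.829 at 120 min, and Polr3d at 0.784 and 0.868. Of the active-site pair, the RNA of Polr3a was mostly new, at 0.712 and 0.678, whereas Polr3b stood at 0.322 and 0.252. Partners in the same enzyme thus lay far apart, and in the same order in both libraries. In polymerase I the order was the other way round, with the largest subunit, Polr1a, at 0.291 and 0.290 and the second largest, Polr1b, at 0.530 and 0.516. Of the pair shared by polymerases I and III, Polr1c stood at 0.781 and 0.711 and Polr1d at 0.242 and 0.245.

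Among the general factors of polymerase II, TFIIB (Gtf2b) stood at 0.602 and 0.648 at 120 min. Both TFIIE genes were above 0.5, with Gtf2e1 at 0.795 and 0.623 and a mean of 0.528 for Gtf2e2. The 5 TFIIH core genes ranged from 0.153 to 0.357, with Gtf2h4 at 0.113 and 0.193 and Gtf2h5, its smallest subunit, at 0.187 and 0.154. The large and small TFIIA genes differed, with Gtf2a1 at 0.780 and 0.779 against a mean of 0.235 for Gtf2a2. The TFIIF genes had means of 0.306 for Gtf2f1 and 0.335 for Gtf2f2. Of the polymerase III factors, TFIIIA (Gtf3a) stood at 0.211 and 0.197 and 5 of the 6 TFIIIC genes between 0.294 and 0.519, while Gtf3c4 stood apart at 0.891 and 0.939.

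Within TFIID, the RNA of the scaffold subunit Taf5 was at the upper limit of the estimate. Its NTR was 0.0390 and 0.0233 after 15 min, 0.436 and 0.572 after 60 min, and 1.0 in both libraries after 120 min, where the posterior interval of 90% ran from 0.908 to 0.997 in replicate A and from 0.879 to 0.995 in replicate B. Taf8 stood at 0.869 and 1.0, and Taf3 at a mean of 0.811. At the other end, Taf6, a histone-fold subunit, stood at 0.184 and 0.123 and Taf10 at 0.178 and 0.159. Taf1, the largest TFIID subunit, stood at 0.278 and 0.272. The 12 TFIID genes had a median of 0.314, with 4 at 0.5 or above.

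The SL1 genes carried mostly new RNA, apart from Taf1b at 0.393 and 0.372. Taf1c stood at 0.780 and 0.939 at 120 min. Taf1d had the highest values of the Taf genes at 15 and 30 min, with 0.135 and 0.0781 after 15 min and 0.502 and 0.465 after 30 min, and reached 0.890 and 0.922 by 120 min. The exons annotated for Taf1d contain several short genes on the same strand, so which transcripts its reads came from was not resolved. Taf15, of the FET family, was among the 3 lowest Taf genes, at 0.174 and 0.195.

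The ranges of the Mediator modules overlapped. The middle module had a median of 0.731 at 120 min, with 5 of 7 genes at 0.5 or above. Med26, which docks elongation factors, had the highest NTR of the 95 genes at 30 min, 0.515 and 0.653, then a mean of 0.878 ± 0.110 by 60 min and 1.0 in both libraries at 120 min (lower bounds of the 90% posterior interval 0.891 and 0.928). Med7 stood at 0.893 and 0.836, and Med1, which binds nuclear receptors, at 0.724 and 0.779. The 10 head genes had a median of 0.432, from 0.198 (Med30, at 0.241 and 0.156) to 0.695 (Med20). Of the 6 tail genes, 4 lay between 0.217 and 0.233, Med15 had a mean of 0.441, and Med23 stood at 0.605 and 0.628. The backbone Med14 was low, at 0.201 and 0.198.

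The 3 kinase module genes lay far apart. Med12, which activates the kinase, had an NTR of 0 in both libraries at 15 min, 0.0449 and 0.0570 after 60 min, and 0.209 and 0.187 after 120 min, the lowest mean among Mediator genes. Med13, which connects the module to the core, stood at 0.371 and 0.408 after 60 min, then at 0.895 and 0.888 after 120 min. Its paralogue Med13l stood at 0.834 and 0.832. The values of Med12 and Med13 at 120 min lay on opposite sides of the median of all genes in each library.

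**Figure D2:**
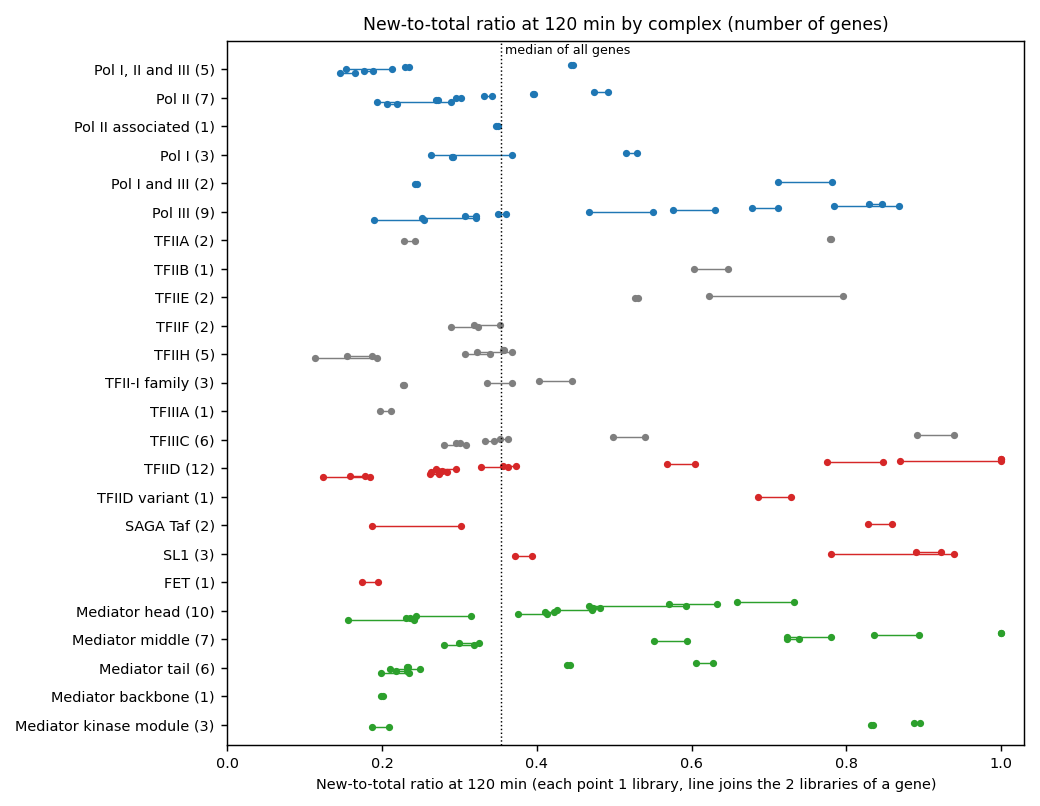
New-to-total ratio at 120 min (x axis, no unit) of the 95 genes by complex (y axis, with the number of genes), where each point is a library and a line joins the 2 libraries of a gene. The dotted line is the median of all genes, 0.354. TFIIH, polymerase II and the shared subunits lie mostly to its left and the Mediator middle module mostly to its right, with the TFIIIC, TFIID and kinase module genes spread over both sides.

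Multiplying CPM by the NTR, or by its complement, separates the new from the old RNA of a gene. For Polr3f, old RNA was 48.8 and 49.0 CPM at 15 min, 26.2 and 27.0 CPM at 60 min and 5.44 and 6.21 CPM at 120 min, while new RNA went from 1.01 and 0.565 CPM to 30.0 and 30.2 CPM. Old Med13 RNA went from 123 and 128 CPM at 15 min to 9.58 and 10.3 CPM at 120 min, that is 7.90% ± 0.380 of the mean at 15 min (SD, n = 2). Polr2a, which lies near the middle of the NTR range, had 56.1% ± 2.58 of its old RNA at 120 min, and Polr1d and Med12 had 92.3% ± 0.592 and 91.9% ± 3.18. The median over the 95 genes was 63.5%, and 64.9% over all genes. These percentages use CPM, a share of each library, and so are relative to the other RNA in it.

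**Figure D3:**
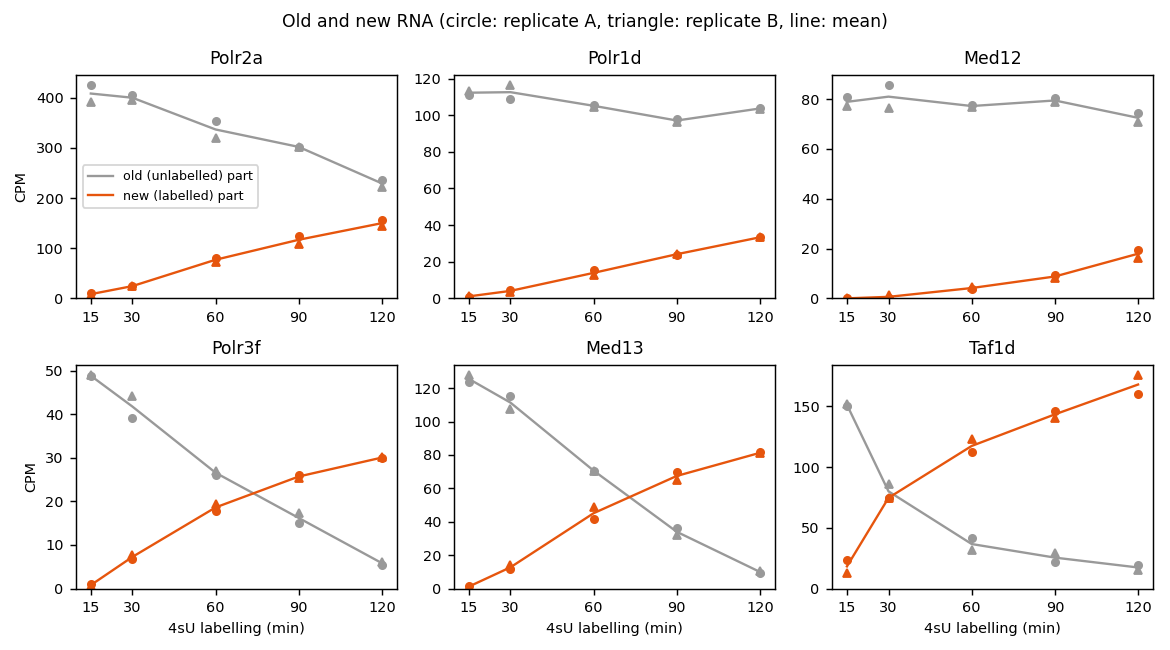
Old (grey) and new (orange) RNA in CPM (y axis) against labelling time in minutes (x axis) for 6 genes, with a circle for replicate A, a triangle for replicate B and a line through the means. Old and new RNA of Polr3f, Med13 and Taf1d cross within the time course, whereas old RNA of Polr2a, Polr1d and Med12 stays above the new at 120 min.

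Expressed as an apparent half-life, ln 2 times the labelling time over the negative logarithm of the old share, the members spanned a wide range. At 120 min Gtf3c4 came to 33.7 ± 5.52 min, Taf1d to 35.2 ± 3.58 min, Med13 to 37.5 ± 0.780 min and Polr3f to 45.7 ± 1.87 min (SD, n = 2). Polr2a came to 165 ± 0.768 min and Polr2b to 235 ± 4.60 min, and Gtf2h4 had the longest of the 95 genes at 540 ± 215 min, with an SD that leaves its exact length undetermined. The estimate depended on the time at which it was taken. Of 92 genes with a value at both times, 82 (89.1%) had a shorter one at 120 than at 60 min, against 85.3% of all genes, and the median over these genes was 280 min at 60 min and 197 min at 120 min. For Polr2a it was 202 ± 1.19 min at 60 min, and for Med12 807 ± 139 min against 379 ± 33.6 min. The lengths are therefore given as an order of genes at a common time.

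At 120 min, counts of 13 of the 101 genes tested were lower than at 15 min and 3 were higher (edgeR, adjusted p below 0.05). The 13 were 12.9% of the members against 11.3% of all genes tested that were lower, and the 3 were 2.97% against 7.93% that were higher, so the share of falls was near that of all genes tested. The median log2 fold change was -0.02, and 0.01 over all genes tested. Polymerase III subunits (Polr3f, Polr3g and Polr3d), Mediator genes (Med13, Med26, Med23 and Med4), Taf genes (Taf4b, Taf5 and Taf9b), the factors Gtf2b and Gtf3c4, and Polr1b were the lower ones. Polr1d, Gtf2f1 and Taf15 were the higher ones. By class, 4 polymerase, 2 Gtf, 3 Taf and 4 Mediator genes were lower, and 1 polymerase, 1 Gtf, 1 Taf and 0 Mediator genes higher. DESeq2 also called 0 Mediator genes higher. Of the 29 Mediator genes tested, 7 had an unadjusted p below 0.05 (edgeR) in either direction, against 3862 of the 11564 genes tested. Of the 7 genes specific to polymerase II none passed the threshold, where 11.3% of all genes tested were lower and 7.93% higher. So few genes do not set polymerase II apart from the rest.

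The 6 largest falls among genes averaging at least 100 counts were of Taf4b, Taf5, Med13, Polr3f, Polr3g and Med26. Taf4b, a paralogue of the TFIID subunit Taf4, had 24.7 and 23.1 CPM at 15 min and 15.5 and 17.9 CPM at 120 min (log2 fold change -0.51 ± 0.12 SE, adjusted p = 0.00787, edgeR). Taf5 went from 15.9 and 17.1 CPM to 12.2 and 11.6 CPM (-0.48 ± 0.12, adjusted p = 0.00776). In neither gene did the libraries of the 2 groups overlap. Med13 had 94.3 and 121 CPM without 4sU, 125 and 129 CPM at 15 min, 127 and 121 CPM at 30 min, 112 and 119 CPM at 60 min, 106 and 96.8 CPM at 90 min and 91.1 and 91.4 CPM at 120 min. Its log2 fold change at 120 against 15 min was -0.47 ± 0.084 (adjusted p = 0.000901, edgeR), with both 120 min libraries below every other library.

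Polr3f, on chr2:144527718-144541995 (GRCm38, plus strand), had 43.4 and 50.8 CPM without 4sU and 49.8 and 49.5 CPM at 15 min. It had 46.1 and 52.0 CPM at 30 min, 44.0 and 46.4 CPM at 60 min, 41.2 and 42.7 CPM at 90 min and 35.4 and 36.4 CPM at 120 min (-0.47 ± 0.087 against 15 min, adjusted p = 0.00126, edgeR). The 120 min libraries were again the lowest of the 12. Polr3g, the partner of Polr3f in the initiation subcomplex, had 23.4 and 27.1 CPM at 15 min and 17.0 and 20.7 CPM at 120 min (-0.41 ± 0.12, adjusted p = 0.0185). For Med26 the values were 20.2 and 22.0 CPM and 15.8 and 17.0 CPM (-0.36 ± 0.11, adjusted p = 0.0296). Both genes were separated between 15 and 120 min, but the no4sU libraries of Polr3g, at 19.8 and 22.6 CPM, overlapped its 120 min range.

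Each of the 3 rises was small. Polr1d had 112 and 115 CPM at 15 min and 137 and 137 CPM at 120 min (0.27 ± 0.057, adjusted p = 0.00294, edgeR), above all 10 other libraries. Gtf2f1, the large TFIIF subunit, had 107 and 119 CPM against 134 and 130 CPM (0.23 ± 0.066, adjusted p = 0.0183). Taf15 had 134 and 133 CPM against 155 and 156 CPM (0.22 ± 0.071, adjusted p = 0.0359), although its library A at 90 min, at 164 CPM, was higher than both. Polr2a had 435 and 398 CPM at 15 min and 392 and 366 CPM at 120 min (-0.14 ± 0.059, adjusted p = 0.107, edgeR), with no overlap, and Polr2b 138 and 148 CPM against 139 and 138 CPM (-0.04 ± 0.062, adjusted p = 0.652), with overlap. Neither passed the threshold in the fit over all 12 libraries, and DESeq2 gave Polr2a an adjusted p of 0.132. Polr2a passed it in the edgeR fits of the 10 labelled libraries (adjusted p = 0.0136) and of only the groups compared (0.00651), and with library size alone (0.0233).

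**Figure D4:**
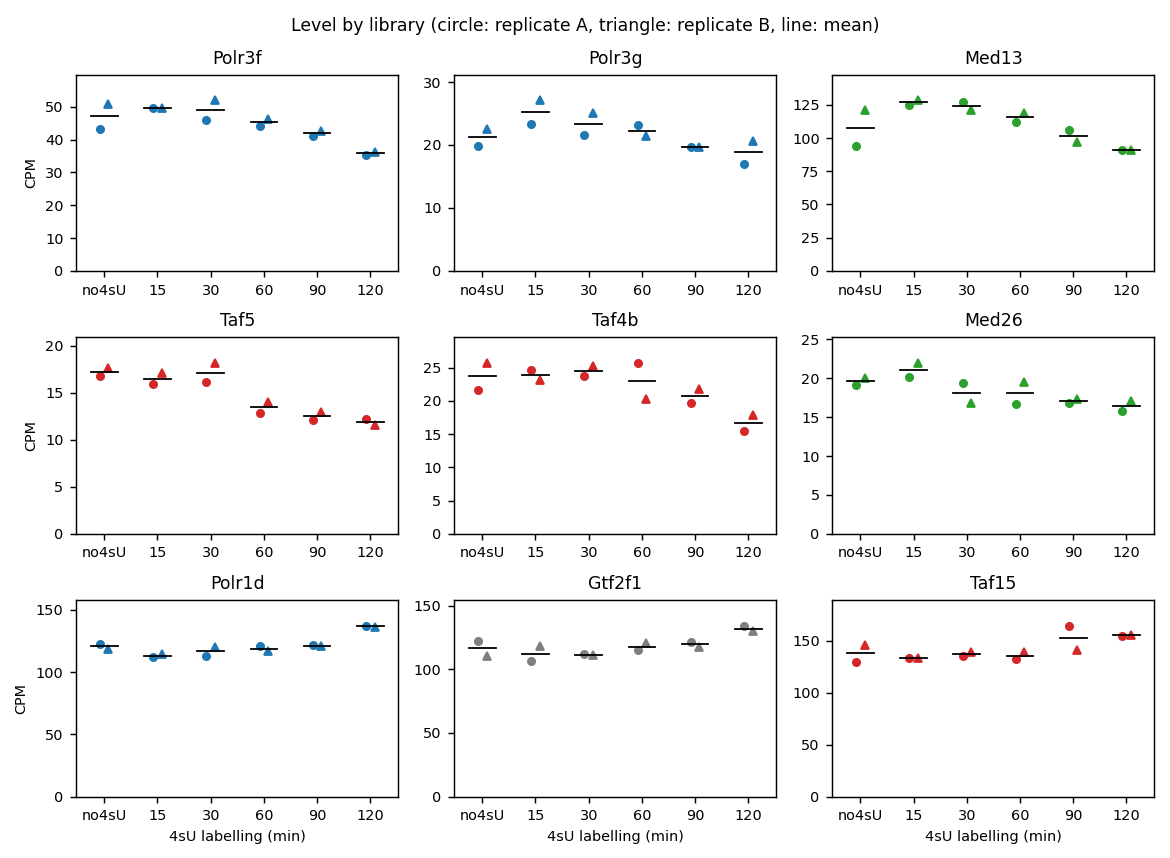
Level in CPM (y axis, from 0) by labelling group (x axis, minutes of 4sU or no4sU) for the 6 largest falls and 3 rises, with a circle for replicate A, a triangle for replicate B and a bar at the mean. Both 120 min libraries of Polr3f, Med13 and Taf4b lie below every other library of the gene, and both of Polr1d and Gtf2f1 lie above.

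The change in count followed the NTR. Of the 25 genes with an NTR below 0.25 at 120 min, 0 had a negative log2 fold change at 120 against 15 min, and their median was 0.14. The 38 genes from 0.25 to 0.5 had a median of 0.01, with 19 negative. Of the 19 genes from 0.5 to 0.8, 17 were negative with a median of -0.17, and of the 13 at 0.8 and above, 12 were negative with a median of -0.25. All genes gave medians of 0.15, -0.00225, -0.17 and -0.26 in the same ranges, so the medians of the members lay close to these. The 12 falls of genes averaging at least 100 counts were all in the upper pair of ranges, 6 in each. Of all genes in these ranges, 30% and 46.4% were called lower. The 3 rises were all below an NTR of 0.5. Below 0.25, 2 of the 25 members were called higher, against 26.3% of all genes. From 0.25 to 0.5 it was 1 of 38, against 2.03%. Across the 95 genes the Spearman correlation of the log2 fold change with the NTR at 120 min was -0.74, and within the classes it lay between -0.72 and -0.79. This is a description across genes, and both measures come from the same 120 min libraries. The exception at high NTR was Taf1d, with 174 and 165 CPM at 15 min and 180 and 191 CPM at 120 min (0.13 ± 0.063, adjusted p = 0.156, edgeR).

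**Figure D5:**
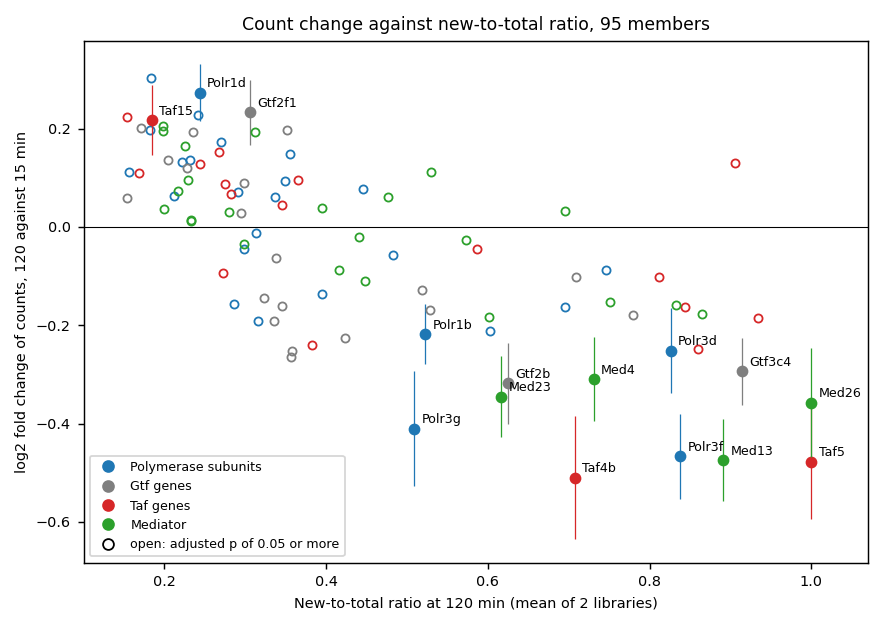
Log2 fold change of counts at 120 against 15 min (y axis) against the new-to-total ratio at 120 min (x axis, mean of 2 libraries) for 95 genes, coloured by class, with filled points and bars of 1 SE for genes with an adjusted p below 0.05. The points descend from left to right in each class, with Polr1d, Gtf2f1 and Taf15 at the upper left, Taf5 and Med26 at the lower right, and Taf1d alone above 0 beyond an NTR of 0.8.

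The size of this trend was measured as an implied loss, the labelled share taken to be absent from a library. It was set so that restoring it brought the Spearman correlation of log2 fold change and NTR to 0. The correlation was over all genes averaging at least 100 counts. For the 30 min libraries it was 11% and 8.8%, for 60 min 22.5% and 19.6%, for 90 min 25.7% and 28.6%, and for 120 min 34.1% and 35.6%. With the new part of each count divided by 1 minus this loss, 0 of the 13 falls and 0 of the 3 rises were called by edgeR. Polr3d then had a log2 fold change of 0.01 (adjusted p = 0.967) and Gtf3c4 of 0.02 (adjusted p = 0.947), and Taf1d (0.44, adjusted p = 0.000625) and Med18 were called higher. The scaling was built from the same trend, so its removal of the falls is not separate evidence. What produced the trend was not tested.

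The calls also depended on the fit and on single libraries. The 13 falls were among 23 with library size alone and among 22 with only those groups fitted. The share of all genes called in these fits is not set beside the counts. They therefore do not show whether the members moved apart from the rest. Leaving out either 15 min or either 120 min library left between 4 and 6 of the 13 falls, and 0 to 2 of the 3 rises. Med13 and Polr3f were called lower in all 4 of these fits, and Polr1d higher in 3. DESeq2 called 10 of the 13 falls, without Med26, Polr3d and Taf9b, and 2 of the 3 rises, without Taf15. Of the 11564 genes tested, it called 883 lower and 556 higher.

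Against the unlabelled libraries, 13 of the 101 genes were lower and 1 higher at 120 min, against 8.78% of all genes tested lower and 5.43% higher. The share of lower members was 12.9%. With only these groups fitted, edgeR called 0 members lower and 0 higher. The share of all genes called in that fit is not given, so these counts do not describe the members apart from the rest. DESeq2 called 4 lower and 0 higher, against 608 and 452 of the 11564 genes tested. In the edgeR fit over all libraries 29 of the 101 had an unadjusted p below 0.05, against 3524 of all genes tested. Taf5 went from 16.8 and 17.6 CPM without 4sU to the 120 min values above (-0.54 ± 0.11, adjusted p = 0.00415, edgeR), Polr3f by -0.40 ± 0.087 (adjusted p = 0.00538) and Med4 by -0.39 ± 0.084 (adjusted p = 0.00505). Polr1d was the single gene that was higher (0.18 ± 0.057, adjusted p = 0.0361). This comparison and that against 15 min share the 120 min libraries, so their likeness is partly built in. The no4sU libraries differed from each other more than other pairs. Over the 95 genes, the log2 difference of A from B had an SD of 0.18, against 0.11 to 0.12 in the labelled groups, and that difference had a Spearman correlation of -0.59 with gene length. The number of members called also changed when a single no4sU or 120 min library was left out.

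At shorter exposures no member was called. At 90 against 15 min, 0 of 101 were lower and 0 higher in edgeR, with 1.01% and 0.0519% of all genes, and DESeq2 called 0. An unadjusted p below 0.05 (edgeR) was found for 12 of the 101, against 1807 of the 11564 genes tested. Med13 had a log2 fold change of -0.32 (adjusted p = 0.0662, edgeR) and Taf5 of -0.40 (adjusted p = 0.108). At 60 against 15 min, edgeR and DESeq2 called 0 members, and edgeR called 0.0346% of all genes. In edgeR, 3 members had an unadjusted p below 0.05, against 716 of the 11564 genes tested. At 30 against 15 min both tools called 0 members and 0% of all genes. In edgeR, 2 members had an unadjusted p below 0.05, against 249 of the 11564 genes tested. These counts do not show that levels were equal at these times.

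Other transcription genes were taken from a list. Of 56 such genes, among them TBP, the Mediator and TFIIH kinases and the elongation factors, 13 were lower (23.2%) and 5 higher (8.93%) at 120 against 15 min, where 11.3% and 7.93% of all genes tested were called. Whether this share differs from that of the 101 genes was not tested. Their median log2 fold change was -0.06, and the median NTR of the 55 with a mean count of at least 100 was 0.412 ± 0.00347 (SD, n = 2). The largest changes were falls of Ell, an elongation factor of polymerase II (-0.46 ± 0.10, adjusted p = 0.00487, edgeR), Cdc73 of the PAF1 complex (-0.41 ± 0.097, adjusted p = 0.00585) and Rpap2, a phosphatase of the polymerase II tail (-0.38 ± 0.12, adjusted p = 0.0283). Tbp itself, the core of TFIID, had an NTR of 0.817 ± 0.0122 and fell by 0.26 on the log2 scale (adjusted p = 0.0340, edgeR).

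Some levels may be shared with overlapping genes. In GENCODE M21 on GRCm38, the exons of 6 of the 105 genes overlapped a gene on the same strand by at least 100 bases, and those of 28 a gene on the opposite strand. The labels and headers do not state whether counting used strand, so reads of the latter cannot be told apart from their partners. Med13 (chr11:86267033-86357602, minus strand) shares exon bases with the antisense gene Brip1os, Med26 (chr8:72494561-72548270, minus strand) with Gm17435, and Taf10 (chr7:105739393-105744361, minus strand) with Ilk. Polr3f, Polr3g, Polr1d, Taf5 and Gtf2f1 had no such overlap.

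The members are transcribed by polymerase II themselves, and their promoters were read from RefSeq (GRCm38.p6, 250 bases before to 50 after the start). A promoter was found for 91 members, 107 in all. The ETS-type motif CCGGAAG, searched on both strands, was in 33.6% of these, against 18.4% of the promoters of all genes tested and 8.86% of all 32851 promoters. The TATA-type TATAAA, counted at any position, was in 12.1%, against 6.68% and 13.6%. The NRF1-type GCATGCGC was in 11.2%, against 5.48% and 2.71%, the YY1-type AAGATGG in 12.1%, against 7.21% and 6.34%, and CCAAT in 31.8%, against 38.5% and 37.4%. CCGGAAG was in 29.2% of polymerase, 40% of Gtf, 37% of Taf and 29% of Mediator promoters. A match says only that the letters are somewhere in the window. Windows of the same gene can overlap and count a match again. This held for CCGGAAG in Med15, Taf1a and Gtf3c6, and for GCATGCGC in Med15, Taf1a and Taf6. It also held for AAGATGG in Gtf3c6 and for CCAAT in Med7 and Taf1a. The TATAAA of Taf5 lies at the far upstream end of its window, and that of Polr2c is also further upstream than that of Polr2a. The windows of Polr3f, Med13, Med26, Polr1d and Med12 held none of these motifs and are not shown. The following are examples chosen among windows with a match, with motif matches in capitals (as CTTCCGG where CCGGAAG is on the other strand). Polr2a (chr11:69758584-69758883, minus strand) is the largest polymerase II subunit and, like Polr2c, has a TATAAA, Taf5 (chr19:47067498-47067797, plus strand) has TATAAA and AAGATGG, Polr3g (chr13:81710964-81711263, minus strand) is a polymerase III gene that fell, and Polr2f (chr15:79141075-79141374, plus strand) is a shared subunit with old RNA.
Polr2a: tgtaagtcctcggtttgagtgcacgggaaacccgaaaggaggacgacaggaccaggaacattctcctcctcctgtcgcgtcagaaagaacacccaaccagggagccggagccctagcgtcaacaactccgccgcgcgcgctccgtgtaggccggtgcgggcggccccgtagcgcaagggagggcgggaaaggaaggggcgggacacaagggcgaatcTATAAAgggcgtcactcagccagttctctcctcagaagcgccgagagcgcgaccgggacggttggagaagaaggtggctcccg
Taf5: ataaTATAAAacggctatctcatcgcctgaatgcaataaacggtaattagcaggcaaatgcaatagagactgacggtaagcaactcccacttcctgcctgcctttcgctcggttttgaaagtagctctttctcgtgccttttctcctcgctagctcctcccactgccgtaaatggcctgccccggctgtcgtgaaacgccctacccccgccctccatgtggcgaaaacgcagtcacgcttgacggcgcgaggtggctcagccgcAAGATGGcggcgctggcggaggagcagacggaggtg
Polr3g: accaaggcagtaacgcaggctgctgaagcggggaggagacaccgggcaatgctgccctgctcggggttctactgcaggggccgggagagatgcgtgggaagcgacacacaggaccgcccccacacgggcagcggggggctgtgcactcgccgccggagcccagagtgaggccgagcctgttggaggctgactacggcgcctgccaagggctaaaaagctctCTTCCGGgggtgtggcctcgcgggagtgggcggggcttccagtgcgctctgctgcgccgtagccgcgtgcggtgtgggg
Polr2f: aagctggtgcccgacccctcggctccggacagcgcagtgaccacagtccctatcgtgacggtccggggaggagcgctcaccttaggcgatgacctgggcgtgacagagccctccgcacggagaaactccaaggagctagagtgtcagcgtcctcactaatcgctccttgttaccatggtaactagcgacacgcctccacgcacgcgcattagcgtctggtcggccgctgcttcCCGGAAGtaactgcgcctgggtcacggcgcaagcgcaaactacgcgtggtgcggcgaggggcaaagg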

How the data were processed

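RNA of 12 NIH-3T3 libraries (6 groups of 2, from the sample titles) was sequenced after SLAM-seq chemistry. The submitters' processing notes name cutadapt, Bowtie2 2.3.0 and STAR 2.7.10b. Neither the labels nor the headers name the counting tool, its strand setting or the annotation. The authors deposited estimated counts per gene, not scaled between libraries and 20.4% of them not whole (tolerance 1e-06), and the NTR as a fraction with a posterior maximum (used here), a posterior mean and the bounds of a 90% interval (quantiles 0.05 and 0.95), per the file headers. Heavily converted reads may not map, and genes with much new RNA would then lose counts and NTR. Reads shared between similar or overlapping genes add an error that is in none of the errors given. Total counts were 9917026 to 13739380, and 0 columns of other samples were present.

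Counts were rounded and tested in edgeR 4.0.16 (R 4.3.3, limma 3.58.1): filterByExpr (11564 genes), TMM (factors 0.970 to 1.02), and a quasi-likelihood fit over all 12 libraries with no covariate (common coefficient of variation 4.44%), with Benjamini-Hochberg adjustment over all tested genes and a threshold of 0.05. The fit was tested on simulated data. CPM used the TMM library sizes, and RPKM the deposited gene length. NTR summaries used genes averaging at least 100 counts, and half-lives an NTR between 0.01 and 0.99. Alternatives were RLE scaling, library size alone, no filter, DESeq2 1.42.0, other sample sets, leaving out libraries, a replicate block, scaling by the implied loss, and for the NTR the posterior mean, other minimum counts and 60 min. The rest was computed in Python 3.11.15 (pandas 2.3.3, numpy 2.4.6, scipy 1.17.1) and drawn with matplotlib 3.10.9.

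The members, the lists and the rule for naming genes were chosen with earlier results of these data known. The rule named the active-site pair of each polymerase, Gtf2b, Taf1, Med1, Med12, Med13 and Med14, the 6 largest falls and up to 4 largest rises at 120 against 15 min past the threshold at 100 or more mean counts, the 3 highest and 3 lowest NTR of each class, the 3 highest RPKM, the 3 largest changes among other transcription genes, and counts of 5 or fewer. Other genes are named as examples of their complex and were chosen after their values were seen. Locations are from GENCODE M21, counted from 1. Protein sequences were not used here.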

Additional observations from a re-analysis of the deposited data

How the results depend on the processing

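The falls at 120 against 15 min numbered 13, and 23 with library size alone, 22 with only those groups fitted, 0 after scaling by the implied loss and 4 to 6 without single libraries. The rises numbered 3, and 1 with library size alone, 10 with labelled libraries only, 9 with only those groups and 0 to 2 without single libraries. RLE scaling, no filter and DESeq2 kept both counts within 1.5 times. At 90 against 15 min the counts of 0 lower and 0 higher became 5 and 1 with labelled libraries only or only those groups, 3 lower with library size alone and 1 lower with no filter. Against no4sU, 13 lower and 1 higher became 20 and 0 with library size alone, 4 and 0 with DESeq2, 0 and 0 with only those groups, and 1 to 19 and 0 to 6 without single libraries. Polr3d and Gtf3c4 changed sign under the implied loss (log2 fold changes 0.014 and 0.017). Of the 26 named genes not past the threshold, 7 passed it under some alternative. The cause of these changes was not tested beyond the number of libraries used. These are counts of members alone, without the share of all genes that each fit called.

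No pairing by replicate letter was seen in the counts: deviations of libraries with the same letter had correlations between -0.0421 and 0.0684. Such values cannot show whether libraries of a letter were cultured or processed together. With a replicate block, 13 genes were lower and 3 higher at 120 against 15 min, 13 and 1 against no4sU, and 0 at 90 min.

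Median NTR at 120 min moved to 0.312 for polymerase, 0.299 for Gtf and 0.278 for Taf genes at a mean count of at least 500. The Mediator median did not fall with them: the middle one of its 13 genes at that count was Med15, at 0.441, against a median of 0.434 over all 27. The next lower of the 13, Med28, stood at 0.233, so this value lies at the edge of a gap. With no minimum the medians were 0.386 for Taf and 0.450 for Mediator genes. At 60 min the medians were 0.146 (polymerase), 0.135 (Gtf), 0.146 (Taf) and 0.193 (Mediator). The excess of Mediator and Taf over polymerase genes was 0.112 with no minimum, -0.0005 at a count of at least 500, 0.0335 at 60 min and 0.0602 to 0.0964 in single libraries. With 2 libraries a group, an SD rests on 1 difference.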

Other observations

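Values of 4 paralogous pairs, chosen after their values were seen, are given side by side. Taf5 stood at an NTR of 1.0 at 120 min and its SAGA counterpart Taf5l at a mean of 0.844, and Taf6 and its SAGA counterpart Taf6l at 0.153 and 0.244. Taf4 stood at 0.586 and Taf4b at 0.707. Med13 stood at 0.891 and Med13l at 0.833.

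Among members with a mean count below 100, Taf7 had an NTR of 1.0 in both libraries at 120 min and 0.601 and 0.867 at 60 min, at 5.58 and 5.93 CPM. Med18 also stood at a mean of 1.0, Taf1a of SL1 at 0.761, and Polr3gl, the paralogue of Polr3g, at 0.055. Taf9b had 5.01 and 6.69 CPM at 15 min and 3.90 and 3.15 CPM at 120 min, a log2 fold change of -0.74 ± 0.25 (adjusted p = 0.0396, edgeR), the largest fall of any member, with an NTR of 0.400 and 0.299. At its mean count of 55.1 reads it was not called when any of the 15 min or 120 min libraries was left out.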
